A study of Mus musculus with 36 samples.

Results

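The genes described here carry calcium into, out of and within the sarcoplasmic reticulum (SR) of the heart muscle cell. The set was named as 10 gene symbols, and rows of the deposited expression table were matched to them by symbol. Of these, 9 were matched, each by 1 row, out of 36128 gene models under 32750 symbols: Ryr2, Trdn, Jph2, Atp2a2, Pln, Casq2, Hrc, Srl and Slc8a1. The tenth, Cacna1c, was not analysed here.

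In a heart muscle cell, calcium that enters through the L-type channel of the surface membrane opens the ryanodine receptor of the SR, and the calcium released there starts contraction. The cell relaxes when the SERCA2 pump returns calcium to the SR, under the brake of phospholamban, and when the sodium-calcium exchanger moves the rest out of the cell. Inside the SR calcium is held on binding proteins, and junctophilin keeps the SR membrane close to the surface membrane at the dyad. The newborn heart is known to lean more on calcium crossing the surface membrane, and the adult heart more on the SR.

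RNA was sequenced from hearts of CD-1 mice, with no transgene or mutant allele named, in 36 libraries of 16 groups. Whole ventricle was sampled from unoperated mice at postnatal day 0 (P0), P4, P7 and as adults, and at day 1 and day 7 following either a resection of the heart or sham surgery, with n = 2 in each of 8 groups. Cardiomyocytes purified on Miltenyi columns, called isolated here, were sampled at P0, P4 and 7 days after resection or sham surgery (n = 3 in each of 4 groups), and dissociated adult cardiomyocytes, called explants, were sampled at 0, 24, 48 and 72 h of culture (n = 2 in each of 4 groups). The age at surgery, the adult age and the number of animals behind a library were not given in the sources used here, so p-values measure the spread between these samples only.

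Values are FPKM, a level per transcript length and library size, so levels may be compared between genes. Differences are in log2(FPKM + 1), with the standard error (SE) of limma and a p adjusted over all features tested. A gene was called changed at an adjusted p under 0.05. Depth per library is unknown. Between 10454 and 13134 gene models per library reached 1 FPKM. The 5 cardiomyocyte markers found of 8 listed (Tnnt2, Tnnc1, Actc1, Myl3, Ckm) summed to between 3196 and 21119 FPKM, so the labelled cell type was present in every group, at its lowest in explants at 72 h. The ventricle libraries are whole tissue, and in all these bulk samples fewer cells of a type and less RNA per cell cannot be told apart. The labels name a pair of library protocols and a pair of sequencers without saying which library had which.

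No member was at 0 in any library. In mm9, the build of the files, Ryr2 (ENSMUSG00000021313) lies at chr13:11645369-12199212 on the minus strand, Trdn (ENSMUSG00000019787) at chr10:32803288-33196515 on the plus strand and Jph2 (ENSMUSG00000017817) at chr2:163161977-163223729 on the minus strand. The pump gene Atp2a2 (ENSMUSG00000029467) lies at chr5:122903530-122952183 on the minus strand and its brake Pln (ENSMUSG00000038583) at chr10:53057491-53065805 on the plus strand. The luminal genes are Casq2 (ENSMUSG00000027861) at chr3:101890337-101950437 and Hrc (ENSMUSG00000038239) at chr7:52590659-52594343, both on the plus strand, and Srl (ENSMUSG00000022519) at chr16:4480215-4541816 on the minus strand. The exchanger gene Slc8a1 (ENSMUSG00000054640) lies at chr17:81785358-82048947 on the minus strand. All 9 are protein-coding, and the values are for the whole gene, not for an exon or isoform. Their longest annotated transcripts run from 2 exons in Pln to 105 exons in Ryr2. The whole of Pln is overlapped on the other strand by the model Gm9766, which was at 1.00 to 5.97 FPKM. Whether the counting used strand was not given in the sources used here.

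Upstream sequence was matched by symbol to RefSeq windows of GRCm38.p6 for 6 of the 9 members, and the 250 bases before each start are considered. The 4 printed here, 5′ to 3′ on the strand of the gene, belong to the members whose levels took the most different courses: Hrc rose most after birth, Slc8a1 fell, Casq2 separated operated from unoperated ventricle, and Pln fell most in the first 24 h of culture. Capitals mark every match, on either strand, to 6 motifs: the TATA box TATAAA, the GATA site AGATAA, the M-CAT element CATTCC, the E-box CAGCTG, and the MEF2 and CArG motifs by name.
Hrc, chr7:45335019-45335268, plus strand: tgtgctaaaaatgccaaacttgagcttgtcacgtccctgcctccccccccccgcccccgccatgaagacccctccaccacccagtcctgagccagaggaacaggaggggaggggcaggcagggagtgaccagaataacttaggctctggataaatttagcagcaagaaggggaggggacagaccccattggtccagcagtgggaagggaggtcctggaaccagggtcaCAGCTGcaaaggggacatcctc
Pln, chr10:53337436-53337685, plus strand: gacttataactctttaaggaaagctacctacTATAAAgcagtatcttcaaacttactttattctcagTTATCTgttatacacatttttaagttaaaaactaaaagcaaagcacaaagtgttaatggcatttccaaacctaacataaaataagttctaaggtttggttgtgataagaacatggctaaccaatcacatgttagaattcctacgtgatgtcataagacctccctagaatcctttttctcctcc
Casq2, chr3:102086165-102086414, plus strand: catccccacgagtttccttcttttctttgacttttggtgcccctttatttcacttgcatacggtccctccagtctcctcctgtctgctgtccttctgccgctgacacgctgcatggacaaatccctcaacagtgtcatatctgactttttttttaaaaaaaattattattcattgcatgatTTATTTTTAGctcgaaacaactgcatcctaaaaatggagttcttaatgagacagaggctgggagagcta
Slc8a1, chr17:81738388-81738637, minus strand: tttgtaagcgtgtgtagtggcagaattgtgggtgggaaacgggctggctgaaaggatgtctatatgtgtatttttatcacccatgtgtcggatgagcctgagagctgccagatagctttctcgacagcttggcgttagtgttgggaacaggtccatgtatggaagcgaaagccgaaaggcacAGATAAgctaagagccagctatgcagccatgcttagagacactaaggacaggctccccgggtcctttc

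The Hrc window holds 1 E-box that begins 22 bases before the start, and such an E-box is found in 13.05% of the 32536 RefSeq windows of this length. The Casq2 window holds 1 match to the MEF2 motif that begins 69 bases before the start, against 2.889% of windows. In Pln a TATA box begins 219 bases and a GATA site 183 bases before the start, and in Slc8a1 a GATA site begins 68 bases before it. TATAAA is found in 12.31% and AGATAA in 9.97% of windows. Of the windows not printed, both of Jph2 hold the E-box, and that of Ryr2 holds none of the 6 motifs. No member's window holds the CArG or M-CAT motif. These matches describe letters in a window and were not tied to any level below.

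The first question was how the members' levels differed between ages in ventricle without surgery. From P0 to adult, 6 of the 9 members rose, 1 fell and 2 did not pass the test. The rise took in release (Ryr2, Trdn, Jph2), uptake (Atp2a2, Pln) and 1 luminal protein (Hrc, by 5.60-fold), and the fall was in the exchanger Slc8a1. Among all 14306 features tested, 56.9% were called, 13.4% higher and 43.6% lower. The members' median difference was 0.69, beside a median of -0.36 over all features.

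Ryr2, the ryanodine receptor through which the SR releases calcium, was at 148 and 138 FPKM at P0, 115 and 105 at P4, 116 and 104 at P7, and 196 and 190.2 in adults. Both adult libraries lay above all 6 younger ones, and those at P4 and P7 were the lowest. The adult level differed from P7 by 0.81 (SE 0.17, adjusted p = 0.0024) and from P0 by 0.43 (SE 0.17, adjusted p = 0.0459).

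Trdn encodes triadin, which anchors calsequestrin to the ryanodine receptor. Its level was 38.8 and 98.4 FPKM at P0, 108 and 94.7 at P4, 141 and 145 at P7, and 146 and 122 in adults. The P0 libraries lay far apart from each other, and the adult values overlapped those at P7. The difference of adult from P0 was 1.10 (SE 0.31, adjusted p = 0.00922). Without P0 replicate 1 it was 0.44, and without adult replicate 1 it was 0.96, and neither passed the test.

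Jph2 encodes junctophilin, the bridge between SR and surface membrane. It was at 121 and 93.3 FPKM at P0, 102 and 93.3 at P4, 116 and 102 at P7, and 169.7 and 175 in adults. The 6 libraries up to P7 overlapped and both adult libraries lay above them. The adult level was 0.69 above P0 (SE 0.21, adjusted p = 0.0125) and 0.66 above P7 (SE 0.21, adjusted p = 0.0221).

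Atp2a2 encodes SERCA2, the pump that refills the SR, and was among the 121 most abundant models in every library. Its level was 1633 and 1442 FPKM at P0, 1538 and 1282 at P4, 1812 and 1642 at P7, and 2853 and 2862 in adults. The adult libraries stood clear of the younger ones, by 0.90 from P0 (SE 0.18, adjusted p = 0.00114) and 0.73 from P7 (SE 0.18, adjusted p = 0.00693).

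Pln encodes phospholamban, the inhibitor of that pump. It was at 1275 and 1480.4 FPKM at P0, 1473 and 1429 at P4, 1645 and 1705 at P7, and 2453 and 2604 in adults. Again the adult libraries were the highest, 0.88 above P0 (SE 0.14, adjusted p = 0.000187) and 0.59 above P7 (SE 0.14, adjusted p = 0.00494). The rises of Pln and Atp2a2 were of like size, and their ratio within a library is given further on.

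Hrc encodes the histidine-rich calcium-binding protein of the SR lumen, and showed the largest rise of the 9 members. Its level was 90.1 and 65.6 FPKM at P0, 119 and 90.5 at P4, 149.8 and 139 at P7, and 429 and 443 in adults. Each age lay above the one before it without overlap, and the adult libraries lay far above the rest. The difference of adult from P0 was 2.49 (SE 0.18, adjusted p = 3.25e-07), and that from P7 was 1.59 (SE 0.18, adjusted p = 2.98e-05).

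The other luminal genes took no such course. Casq2, which encodes cardiac calsequestrin, the main calcium buffer of the SR, was at 462 and 377 FPKM at P0, 443 and 388 at P4, 376 and 426 at P7, and 344 and 443 in adults. Srl, which encodes the luminal glycoprotein sarcalumenin, was at 458 and 384, 405 and 375, 337 and 339, and 444 and 456 FPKM at the same ages. The ages overlapped in Casq2. In Srl both P7 libraries were the lowest. Adult differed from P0 by -0.10 in Casq2 (SE 0.17, 95% interval -0.46 to 0.27) and by 0.10 in Srl (SE 0.14, 95% interval -0.21 to 0.41). Srl was 0.41 higher in adults than at P7 (SE 0.14, adjusted p = 0.0365). That call was lost when any 1 of the 4 adult and P7 libraries was left out, with values of 0.39 to 0.43.

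Slc8a1, the sodium-calcium exchanger of the surface membrane, went the other way. It was at 186 and 194 FPKM at P0, 138 and 165 at P4, 87.0 and 93.0 at P7, and 96.1 and 107 in adults. The P0, P4 and P7 libraries did not overlap, and the adult libraries lay just above those at P7. From P0 to adult it fell by 0.90 on the log2 scale (SE 0.22, adjusted p = 0.00452). The step from P4 to P7 was -0.74 (SE 0.22, adjusted p = 0.141).

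By steps, 0 members were called by limma from P0 to P4 (1.35% of all features called, 0.58% higher and 0.769% lower). From P4 to P7 it called 0 as well (1.6%, with 0.664% higher and 0.937% lower). In these steps 3 and 2 members had an unadjusted p under 0.05. The share of all features at that threshold is not given here. From P7 to adult 6 were called, all higher: Hrc, Ryr2, Atp2a2, Jph2, Pln and Srl (40.6% of features called, 10.7% higher and 29.8% lower). These comparisons share libraries and are not separate evidence. Left out in turn, single libraries of adult and P0 took the call from P0 to adult away from Ryr2 (each of the 4, values 0.38 to 0.48) and from Jph2 (adult replicate 2, 0.67; P0 replicate 2, 0.51). From P7 to adult the call was lost for Jph2 without any 1 of the 4 libraries (0.57 to 0.75) and for Atp2a2 without P7 replicate 2 (0.66).

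Scaling changed the split of calls over all features. As deposited, 23.4% of calls from P0 to adult were higher, against 51.1% after median-of-ratios scaling, which moved the median of all features by 0.34. Under that scaling Slc8a1 was at -0.46 (adjusted p = 0.097) and not called, and Srl was called at 0.54. The same scaling took the share of higher calls from P7 to adult from 26.4% to 49.5%, with a shift of 0.20. Quantile normalization turned Srl to -0.40 with a call from P0 to adult, called Casq2 at -0.61 and put Ryr2 at 0.47 without a call, while Hrc, Trdn, Atp2a2, Pln and Jph2 stayed higher with a call under both. The mean log2 level of the cardiomyocyte markers was 0.24 higher in adults than at P0 and 0.37 higher than at P7. Scaled to those markers, a choice made after the values were seen, 1 of the 6 calls from P7 to adult was kept, Hrc (1.21), while Ryr2 (0.44), Atp2a2 (0.36), Jph2 (0.29), Pln (0.22) and Srl (0.04) were not called. From P0 to adult the same scaling left Ryr2 (0.19) and Trdn (0.86) uncalled. Fibroblast and macrophage markers differed between the ages too: the 7 found of 8 listed summed to 936 to 1189 FPKM at P0 and 382 to 399 in adults, and the 8 macrophage markers to 25.1 to 33.1 and 124 to 163. Their part in the members' differences was not tested.

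**Figure D1:**
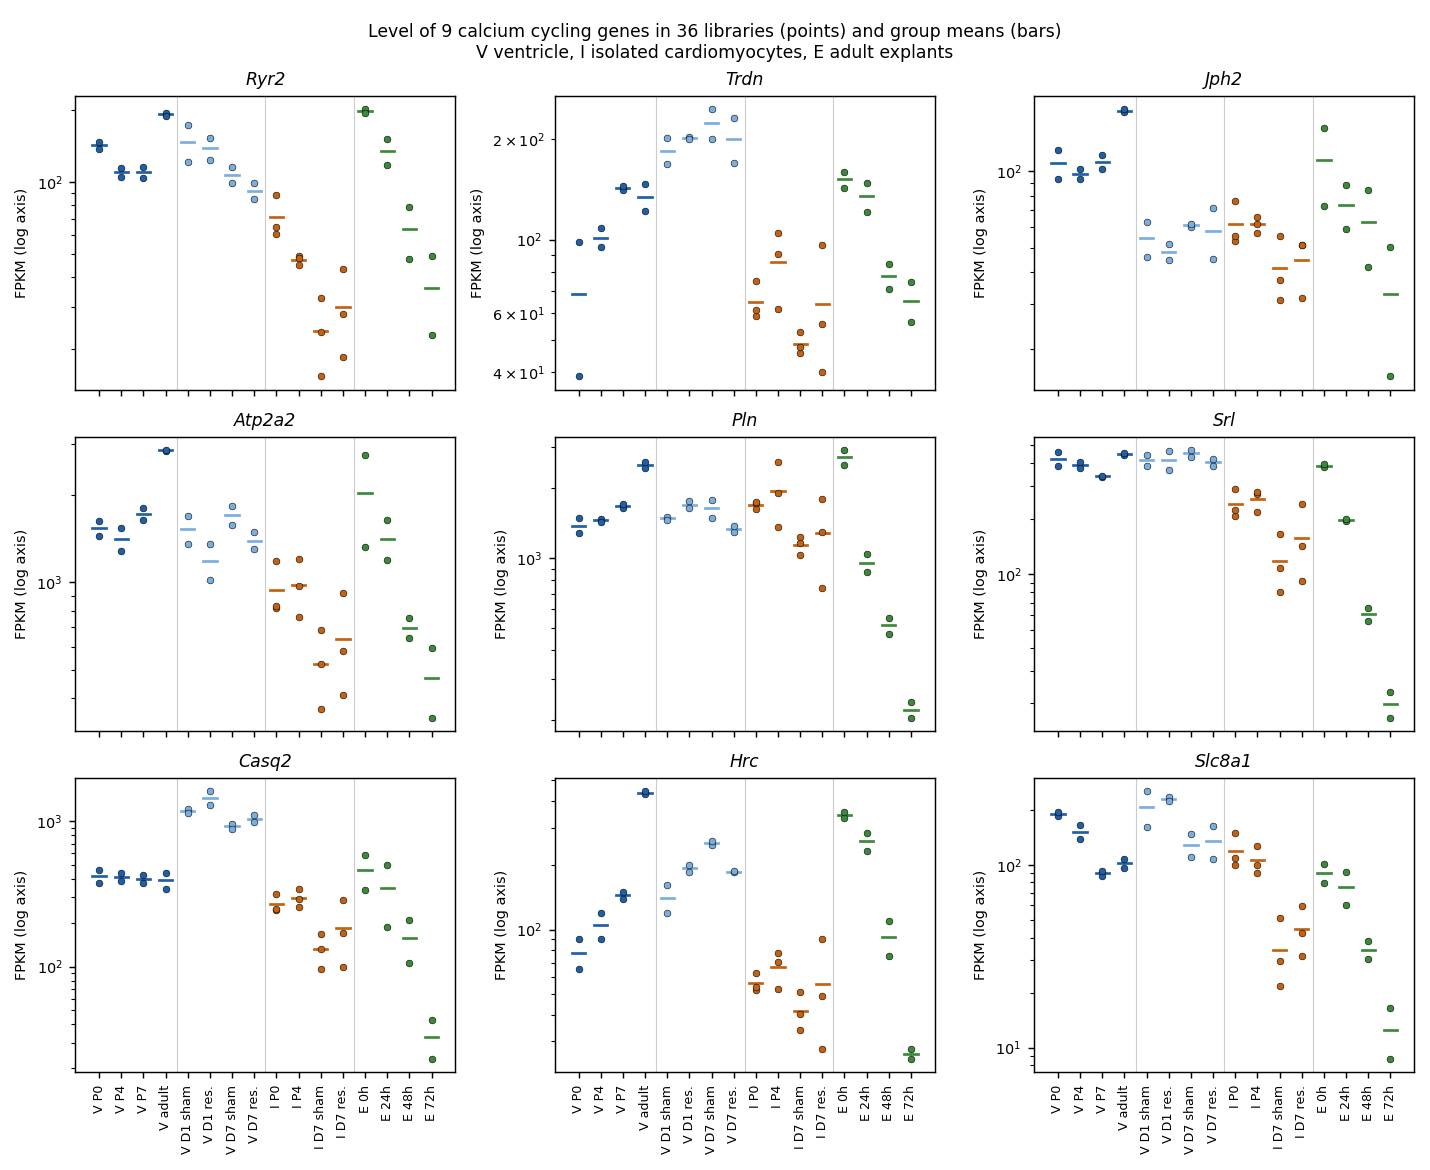
FPKM (log axis) of each of the 9 members in every library, as points, with bars at the group means, for ventricle without surgery (dark blue) and after surgery (light blue), isolated cardiomyocytes (orange) and explants (green). Hrc is highest in adult ventricle at 429 and 443, Casq2 is at 887 to 1604 in operated and 344 to 462 in unoperated ventricle, and all 9 members are lower in explants at 72 h than at 0 h.

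The second question was what surgery did in ventricle. Between resection and sham, limma called 0 of 9 members at day 1 (10.3% of all features called, 1.38% higher and 8.88% lower). At day 7 it called 0 as well (0.154%, with 0.147% higher and 0.00699% lower). On each day 1 member had an unadjusted p under 0.05, Hrc both times. The share of all features at that threshold is not given here. At day 1, 13.5% of calls over all features were higher as deposited and 40.2% after median-of-ratios scaling, which called Hrc (0.66, adjusted p = 0.0452). At day 1 Hrc was at 161 and 119 FPKM after sham surgery and 201 and 185 after resection. At day 7 it was at 249.7 and 259.6 after sham and 186 and 188 after resection. Both Hrc libraries after resection lay above those after sham at day 1 and below them at day 7. The difference was 0.48 at day 1 (SE 0.18, adjusted p = 0.104) and -0.45 at day 7 (SE 0.18, adjusted p = 0.389), and neither passed the test. Summed markers of other tissue were apart between the same day 7 groups. Lung epithelial markers summed to 94.3 to 216 FPKM after resection and 2.70 to 25.7 after sham. Atrial markers summed to 405 to 490.4 against 201 to 226, and macrophage markers to 102 to 139.6 against 59.6 to 62.5. Mean log2 levels were 2.94 and 0.79 for lung, 2.96 and 2.74 for atrial and 2.81 and 2.35 for macrophage markers. By that measure the atrial list differed little. At day 1 macrophage markers summed to 29.2 to 32.6 after resection and 73.4 to 110.6 after sham. Their part in the members' levels was not tested.

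The change of the Hrc difference between the days was -0.92 (SE 0.25, 95% interval -1.47 to -0.37), with an adjusted p of 0.0506 where 5.93% of features were called, 5.69% higher and 0.245% lower. It was called after median-of-ratios scaling (-1.24, adjusted p = 0.0271) and without day 1 sham replicate 1 (-1.14) or day 1 resection replicate 2 (-0.98). It was not called without any 1 of the other 6 libraries (-0.95 to -0.71), after quantile normalization (-1.10, adjusted p = 0.0667) or marker scaling (-1.01, adjusted p = 0.107), without the filter (adjusted p = 0.0912) or in a single fit over all libraries (adjusted p = 0.358). The other 8 members had adjusted p-values of 0.149 or more for this term.

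The differences of the other members were smaller. Resection and sham libraries did not overlap in 4 of the 9 members at day 1 and in 6 at day 7, Hrc included. The share of all features that did so is not given here. Atp2a2 was at 1700.4 and 1356 FPKM after sham and 1017 and 1356 after resection at day 1, and at 1837 and 1575 against 1489 and 1302 at day 7. No resection library lay above the lowest sham library of its day. The differences were -0.37 (95% interval -0.77 to 0.02) at day 1 and -0.29 (95% interval -0.68 to 0.11) at day 7, and neither passed the test. Over the 9 members the differences ran from -0.37 to 0.48 at day 1, with a median of 0.13 beside -0.16 over all features. At day 7 they ran from -0.45 to 0.17, with a median of -0.17 beside 0.11.

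Between the sham groups, Hrc was 0.87 higher at day 7 than at day 1 (SE 0.18, adjusted p = 0.00637), the only member called, where 16.1% of features were called and 4.41% were higher. Higher calls were 27.3% of all calls as deposited and 55.3% after median-of-ratios scaling. Without day 1 sham replicate 2 the Hrc difference was 0.66 and not called, while Slc8a1 at -0.98 and Ryr2 at -0.69 were. With all libraries Slc8a1 was at 252 and 160.1 FPKM at day 1 and at 147 and 111 at day 7. The days did not overlap, and the difference of -0.65 (SE 0.22) had an adjusted p of 0.0673.

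For 3 of the 9 members, the 8 operated ventricle libraries stood apart from the 8 unoperated ones as a block, whether resected or sham. Casq2 was at 887 to 1604 FPKM (median 1120.3) after surgery and at 344 to 462 (median 407) without. Trdn was at 168 to 247 (median 201) against 38.8 to 146 (median 115). Jph2 was at 44.7 to 71.3 (median 56.0) against 93.3 to 175 (median 109). In these genes no operated library overlapped an unoperated one, upward in Casq2 and Trdn and downward in Jph2. The same held for 23.9% of all 14306 features, 10% upward and 13.9% downward.

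Once these values were seen, day 7 sham was compared with P7, the nearest unoperated group by label. Of the 3 genes that stood apart, Trdn did not pass the test (0.64, SE 0.31, adjusted p = 0.119). Casq2 (1.2, SE 0.17, adjusted p = 9.56e-05), Hrc (0.81, SE 0.18, adjusted p = 0.00269) and Srl (0.41, SE 0.14, adjusted p = 0.0337) were higher, and Jph2 was lower at -0.82 (SE 0.21, adjusted p = 0.00673). Over all features 42.0% were called in this comparison, 17.1% higher and 24.9% lower. Atp2a2 (-0.02), Pln (-0.04) and Ryr2 (-0.03) lay close to 0 as deposited, and the widest of their 95% intervals, that of Atp2a2, ran from -0.41 to 0.37. Srl lost its call without any 1 of the 4 libraries (0.36 to 0.47), and Jph2 without P7 replicate 1 (-0.73). Quantile normalization took away the calls of Casq2 (0.43) and Hrc (0.36), turned Srl to -0.07 and called Pln lower at -0.48 (adjusted p = 0.0459), so that 2 members were called. Cardiomyocyte markers differed as well in both directions: Tnnc1 was 1.17 higher and Ckm fell by 2.03 on the log2 scale. Surgery, library preparation, sequencer and any difference in age cannot be told apart in this comparison.

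The third comparison was within isolated cardiomyocytes. From P0 to P4, limma called 0 members (0.00761% of features called), and 0 had an unadjusted p under 0.05. At day 7 after sham surgery 5 members were lower than at P4: Slc8a1, Casq2, Srl, Ryr2 and Atp2a2. Of all features 29.5% were called and 25.1% were lower. Age, surgery, library preparation and sequencer cannot be told apart in this comparison. All 9 estimates were below 0, with a median of -0.92 beside -0.29 over all features.

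Slc8a1 was at 99.9, 108 and 149 FPKM at P0, 90.1, 127 and 99.9 at P4, and 29.9, 21.8 and 51.2 at day 7 sham. Every day 7 sham library lay below every P4 library. The difference was -1.66 (SE 0.30, adjusted p = 0.0154), the largest of the members. Ryr2 was at 60.7, 65.1 and 88.4 at P0, 48.8, 48.3 and 45.1 at P4, and 23.7, 15.3 and 32.6 at day 7 sham. The 3 groups did not overlap, and day 7 sham was 1.02 below P4 on the log2 scale (SE 0.30, adjusted p = 0.0287).

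Casq2 was at 289, 341 and 258 FPKM at P4 and 132, 95.8 and 168 at day 7 sham, and Srl at 271, 279 and 217 against 108, 80.5 and 166. Both were lower at day 7 sham with no overlap. They differed by 1.19 (SE 0.33, adjusted p = 0.0242) and 1.17 (SE 0.33, adjusted p = 0.0262) on the log2 scale. Atp2a2 was at 1205, 971 and 761 at P4 and 522, 367 and 683 at day 7 sham. Its groups did not overlap, and the difference was -0.92 (SE 0.32, adjusted p = 0.0483). Pln, at 2602, 1899 and 1356 against 1226, 1028 and 1162, differed by -0.73 (SE 0.31, adjusted p = 0.0882).

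These calls did not hold widely. Leaving out 1 of the 6 libraries left 0 members called for day 7 sham replicates 1 and 2 and for P4 replicates 1 and 2, and up to 7 for the others. Median-of-ratios scaling and quantile normalization each left 1 call, Slc8a1, and the former took the share of higher calls over all features from 14.9% to 66.2% with a shift of 0.27. The 5 cardiomyocyte markers were lower in the same libraries, with sums of 4793 to 7512 FPKM at day 7 sham against 9428 to 15103 at P4 and a mean log2 difference of -1.03. When libraries were scaled to those markers, a choice made after the values were seen, 0 members were called. Ryr2 was then at 0.01 and Atp2a2 at 0.11, with turned sign, and Slc8a1 was at -0.64 (adjusted p = 0.0508). Endothelial markers were higher in the same libraries, with sums of 390 to 451 FPKM against 19.3 to 237 at P4, and so were erythroid markers, with 2176 to 3009 against 221 to 967. The part of these cells in the members' differences was not tested further.

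**Figure D2:**
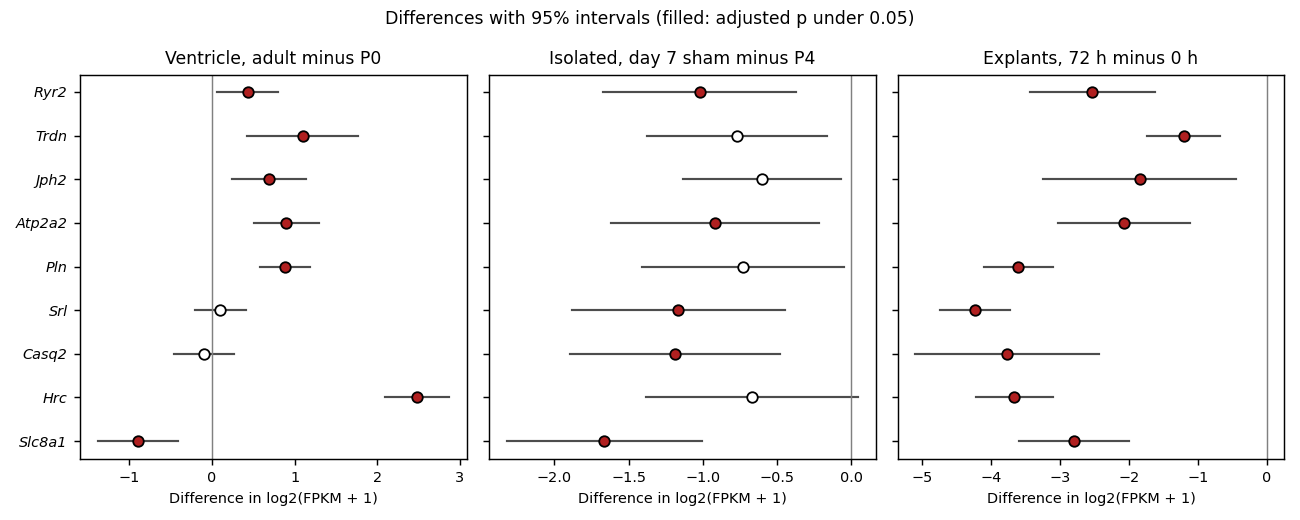
Difference in log2(FPKM + 1) of each member with its 95% interval, for adult minus P0 ventricle, isolated cells at day 7 sham minus P4, and explants at 72 h minus 0 h. Filled points passed an adjusted p of 0.05; the differences run from -0.90 (Slc8a1) to 2.49 (Hrc) in ventricle, and from -4.23 (Srl) to -1.21 (Trdn) in explants.

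After resection, isolated cells at day 7 showed no called member against sham (1.08% of features called, 1.07% higher, and 0 members at an unadjusted p under 0.05 in limma). The 9 estimates ran from 0.08 (Pln) to 0.41 (Slc8a1), all above 0, with a median of 0.30 beside 0.13. For Casq2 the levels were 171, 99.2 and 286 FPKM after resection and 132, 95.8 and 168 after sham. The groups overlapped, as in all 9 members. The 95% interval of the Casq2 difference ran from -0.31 to 1.10. The resection effects in isolated cells and in ventricle differed in 0 members (0.0735% of features called, 0.0401% higher and 0.0334% lower, and 0 members at an unadjusted p under 0.05), with the estimates between 0.22 and 0.72.

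Markers of other tissue and cells differed between these isolated groups. Erythroid markers summed to 2933 to 40386 FPKM after resection and 2176 to 3009 after sham, and fibroblast markers to 962 to 2336 against 191 to 1188. Both of these ranges overlapped. Macrophage markers summed to 17.0 to 50.2 against 4.25 to 12.9, and endothelial markers went the other way, with 17.4 to 379 against 390 to 451. The 6 lung epithelial markers summed to 175 to 1137 FPKM after resection and 0.435 to 2.63 after sham, and the 6 atrial markers to 742 to 1350 against 45.5 to 109. The atrial gene Sln, which encodes sarcolipin, the atrial counterpart of phospholamban, was at 32.0, 82.8 and 21.1 after resection. After sham it was at 0, 1.01 and 0.191, and the difference was 4.88 (SE 0.76, adjusted p = 0.00939). It was the only gene called in the 5 wider lists of calcium handling genes described at the end. The part of atrial and lung tissue and of erythroid, fibroblast, macrophage and endothelial cells in the members' levels was not tested.

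The fourth comparison followed adult cardiomyocytes in culture. All 9 members were lower at 72 h than at 0 h, where 55.8% of features were called, 46.8% higher and 9.07% lower. The members' median was -2.80 beside 0.76 over all features. The luminal genes Srl (18.8-fold), Casq2 (13.7-fold) and Hrc (12.7-fold) and the pump inhibitor Pln (12.2-fold) fell most, and Trdn (2.31-fold) least.

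Srl was at 379 and 393 FPKM at 0 h, 194 and 199.8 at 24 h, 56.0 and 65.8 at 48 h, and 22.9 and 16.7 at 72 h. No time overlapped another, and from 0 to 72 h it fell by 4.23 on the log2 scale (SE 0.22, adjusted p = 0.000121). Hrc was at 332 and 356, 233 and 284, 75.0 and 109.7, and 27.5 and 24.9 at the same times. It too was ordered by time without overlap, with a difference of -3.66 (SE 0.24, adjusted p = 0.000208).

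Casq2 was at 337 and 583 FPKM at 0 h, 186 and 503 at 24 h, 106 and 211 at 48 h, and 23.2 and 42.8 at 72 h. Replicate 2 was the higher one at every time, and neighbouring times overlapped until 48 h. The difference from 0 to 72 h was -3.77 (SE 0.57, adjusted p = 0.00197).

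Pln was at 2517 and 2916 FPKM at 0 h, 871 and 1035 at 24 h, 471 and 554 at 48 h, and 205 and 239 at 72 h. It fell early, by 1.51 on the log2 scale by 24 h (SE 0.21, adjusted p = 0.0107), and differed by -3.61 at 72 h (SE 0.21, adjusted p = 0.00018). Atp2a2 was at 2752 and 1322, 1639 and 1191, 641 and 756, and 341 and 596. The libraries at 0 h lay far apart and overlapped those at 24 h. Its difference at 72 h was -2.08 (SE 0.41, adjusted p = 0.00505).

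Ryr2 was at 203 and 196 FPKM at 0 h, 118 and 153 at 24 h, 47.9 and 78.9 at 48 h, and 22.9 and 49.1 at 72 h. The times were apart except 48 and 72 h, and the difference from 0 to 72 h was -2.53 (SE 0.39, adjusted p = 0.00206). Jph2 was at 147 and 73.0, 88.1 and 59.3, 83.8 and 42.1, and 50.0 and 15.6. Here replicate 1 was the higher at every time, and the difference was -1.85 (SE 0.60, adjusted p = 0.033). Without 0 h replicate 1 it was -1.35, without 72 h replicate 2 it was -1.03, and in both cases it was not called.

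Trdn was at 160.0 and 143 FPKM at 0 h and at 56.6 and 74.4 at 72 h, a difference of -1.21 (SE 0.23, adjusted p = 0.00424). Slc8a1 was at 79.6 and 100.5 at 0 h, 59.9 and 91.4 at 24 h, 30.5 and 38.1 at 48 h, and 8.67 and 16.4 at 72 h. Its values at 0 and 24 h overlapped, and the later times lay below, with a difference of -2.80 (SE 0.34, adjusted p = 0.00102).

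Over single steps, Pln and Srl were called lower at 24 h against 0 h (17.9% of features called, 2.55% lower, and 85.8% of calls higher as deposited against 34% after median-of-ratios scaling). Srl differed by -0.97 there (SE 0.22, adjusted p = 0.0267). From 24 to 48 h and from 48 to 72 h limma called 0 members (0% and 0.0408% of features). There 7 and 5 members had an unadjusted p under 0.05, and the share of all features at that threshold is not given here. Replicate numbers tracked each other across the explant times, with correlations of the deviations of 0.365 to 0.596 over 6 pairs of times. With the replicate number as a block, 3 members were called at 24 h (40.0% of features called, 6.45% lower), Casq2 being added at -0.53 with an adjusted p of 0.0476. The block fit called 7 members lower from 24 to 48 h, where 1.83% of features were lower: Ryr2, Pln, Casq2, Trdn, Hrc, Srl and Slc8a1, with adjusted p-values of 0.0131 to 0.0429. From 48 to 72 h it called 5, where 1.09% were lower: Pln, Casq2, Hrc, Srl and Slc8a1, with adjusted p-values of 0.00485 to 0.0150. Without the block, the call at 24 h was lost for Srl when any 1 of the 4 libraries was left out (-0.99 to -0.94) and for Pln without 24 h replicate 1 (-1.39), 24 h replicate 2 (-1.64) or 0 h replicate 2 (-1.41).

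The cardiomyocyte markers fell over the same hours, from a sum of 17648 to 18426 FPKM at 0 h to 3196 to 3287 at 72 h. Their mean log2 level fell by 3.0, from 1.38 for Tnnt2 to 5.57 for Actc1. Scaled to these markers, a choice made after the values were seen, Srl (-1.24), Hrc (-0.67) and Pln (-0.61) stayed lower with adjusted p-values of 0.00077, 0.025 and 0.030. Trdn (1.79, adjusted p = 7.75e-05) and Atp2a2 (0.92, adjusted p = 0.0477) were then higher, and Ryr2 (0.46), Slc8a1 (0.19) and Jph2 (1.15) turned sign without a call. Casq2 was at -0.78 (adjusted p = 0.179). Median-of-ratios scaling moved the other way, shifting the median of all features by -0.70 and the share of higher calls from 83.8% to 44.4%, and under it all 9 members were called lower (-5.11 to -2.10). Srl had the lowest and Trdn the highest value under both of these scalings. Each moves all genes of a library alike, so this order could hardly change.

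The summed macrophage markers were higher at the later hours, at 1.90 to 2.48 FPKM at 0 h and 83.5 to 137 at 72 h. Their mean log2 level was 0.32 at 0 h and 1.61 at 72 h. Of the list, Adgre1 and Fcgr1 were each at 0 in 1 of 2 libraries at 72 h. The sum of the fibroblast markers was 11.2 to 17.8 at 0 h and 20.4 to 23.0 at 72 h, and that of the lung markers was at most 0.0772 in any explant library. The part of macrophages in the members' fall was not tested.

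**Figure D3:**
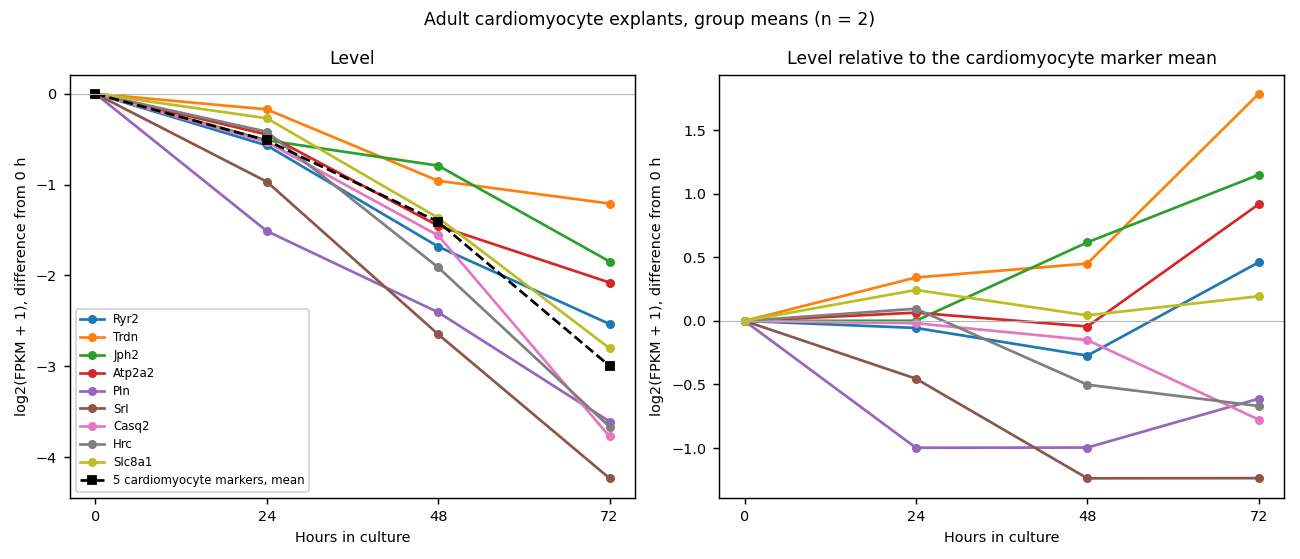
Mean log2(FPKM + 1) of each member in explants (n = 2 per time), as the difference from 0 h, against hours in culture, as deposited (left, with the mean of 5 cardiomyocyte markers dashed) and relative to that marker mean (right). At 72 h all 9 lie between -4.23 and -1.21 on the left, and between -1.24 (Srl) and 1.79 (Trdn) on the right.

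Across preparations, the freshly dissociated explants were compared with adult ventricle, and limma called 0 members (33.5% of features called, 1.81% higher and 31.7% lower), with 0 at an unadjusted p under 0.05. Of the calls over all features 5.40% were higher as deposited and 47.3% after median-of-ratios scaling. Pln was at 2517 and 2916 FPKM in explants at 0 h and 2453 and 2604 in ventricle, and Ryr2 at 203 and 196 against 196 and 190.2. The widest differences were those of Jph2 (-0.73, 95% interval -1.55 to 0.09) and Atp2a2 (-0.58, 95% interval -1.32 to 0.15). Without explant 0 h replicate 1 these were -1.23 and -1.11, and both were called.

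At P0, isolated cells held less Ryr2 (-1.01, SE 0.31, adjusted p = 0.00856) and Srl (-0.82, SE 0.28, adjusted p = 0.0157) than ventricle, where 54.5% of features were called and 53.7% were lower. Of calls over all features 1.3% were higher as deposited and 45.4% after median-of-ratios scaling, which moved the median by 0.58. Under that scaling Ryr2 (-0.25) and Srl (-0.05) were not called, and Pln was higher at 1.08 (adjusted p = 0.0301). With the replicate number as a block 5 members were lower, Casq2, Slc8a1 and Jph2 being added (59.1% of features lower). Across preparations that fit compares levels fitted for replicate 1 of each, so the added calls do not rest on averages over replicates. Without P0 ventricle replicate 1 neither was called (Ryr2 -0.96, Srl -0.69), and without isolated P0 replicate 1 Srl was not (-0.72).

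Set against isolated P0 cells, explants at 72 h were lower in 8 members and level in Trdn (0.00, SE 0.30), where 58.1% of features were called and 15.3% were lower. Higher calls were 73.6% of all calls as deposited and 47.4% after median-of-ratios scaling. Explants at 72 h held less of the luminal genes Srl (-3.53) and Casq2 (-3.05), of Slc8a1 (-3.19) and of Pln (-2.93) than isolated P0 cells. Ryr2 (-1.05), Atp2a2 (-1.04), Hrc (-1.07) and Jph2 (-1.09) differed less. Age, culture, cell preparation, library preparation and sequencer cannot be told apart in this comparison. Erythroid markers summed to 565 to 12051 FPKM in isolated P0 cells and 0.447 to 1.18 in explants at 72 h. Macrophage markers summed to 1.70 to 2.81 and 83.5 to 137 (mean log2 levels 0.30 and 1.61). Their part was not tested. Single explant or P0 libraries took the call from Ryr2 (-0.51) and Atp2a2 (-0.64), both without 72 h replicate 1, and from Jph2 without 72 h replicate 2 (-0.28) or isolated P0 replicate 3 (-0.93). With the replicate number as a block Jph2 was at -0.55 (adjusted p = 0.0701) and not called. Across preparations that fit compares levels fitted for replicate 1 of each, so the value is not an average over replicates. Scaled to the cardiomyocyte markers, Ryr2 (1.28), Atp2a2 (1.29), Hrc (1.26) and Jph2 (1.24) turned higher with a call, and Trdn was called at 2.33. Quantile normalization put Trdn at -0.77 with a call.

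Ratios of 2 members within 1 library do not change when all its values are multiplied by the same factor. Quantile normalization can change them. The tests below used the difference in log2(FPKM + 1) between the 2 genes. Library protocol and sequencer may differ between preparations, and their part in the ratios was not tested. The ratio of Pln to Atp2a2, inhibitor to pump, lay between 0.781 and 1.11 in the 8 unoperated ventricle libraries and did not pass the test between ages (exact permutation p = 0.590). It lay between 1.47 and 2.80 in all 12 isolated libraries. In explants it was 0.915 and 2.21 at 0 h, 0.531 and 0.869 at 24 h, 0.733 and 0.735 at 48 h, and 0.401 and 0.600 at 72 h (exact permutation p = 0.0952, adjusted p = 0.190). The isolated libraries all lay above the unoperated ventricle, and both explant libraries at 48 h and at 72 h and 1 of 2 at 24 h below it. In operated ventricle the ratio was 0.869 to 1.73, and the 2 day 1 resection libraries were the highest, at 1.21 and 1.73.

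The ratio of Slc8a1 to Atp2a2, extrusion to uptake, was lower at later ages in unoperated ventricle. It was 0.114 and 0.134 at P0, 0.0896 and 0.128 at P4, 0.0480 and 0.0567 at P7, and 0.0337 and 0.0375 in adults. Only P0 and P4 overlapped. The test for any difference between ages gave an exact permutation p of 0.0190 (adjusted p = 0.114 over the 6 ratio tests). The ratio of Casq2 to Ryr2 was 1.75 and 2.33 in adults and 2.72 to 4.08 before (exact permutation p = 0.0381, adjusted p = 0.114). In explants neither ratio passed (exact permutation p = 0.514 and 0.200). Since replicate numbers tracked each other there, times were also reassigned within replicates only (576 assignments, smallest possible p 0.0417), a test added after the values were seen. It gave exact permutation p-values of 0.167 for Pln to Atp2a2, 0.375 for Slc8a1 to Atp2a2 and 0.250 for Casq2 to Ryr2, each adjusted to 0.375 over 3 tests. The smallest p the 2520 assignments over all libraries could give was 0.00952, and no ratio passed after adjustment.

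The Casq2 to Ryr2 ratio was 6.95 to 12.8 in the 8 operated ventricle libraries, above all unoperated ones. It was 0.871 and 1.01 in explants at 72 h, the lowest of the 36 libraries. In isolated cells it was 3.57 to 4.05 at P0 and 5.15 to 7.04 in the other 3 groups.

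**Figure D4:**
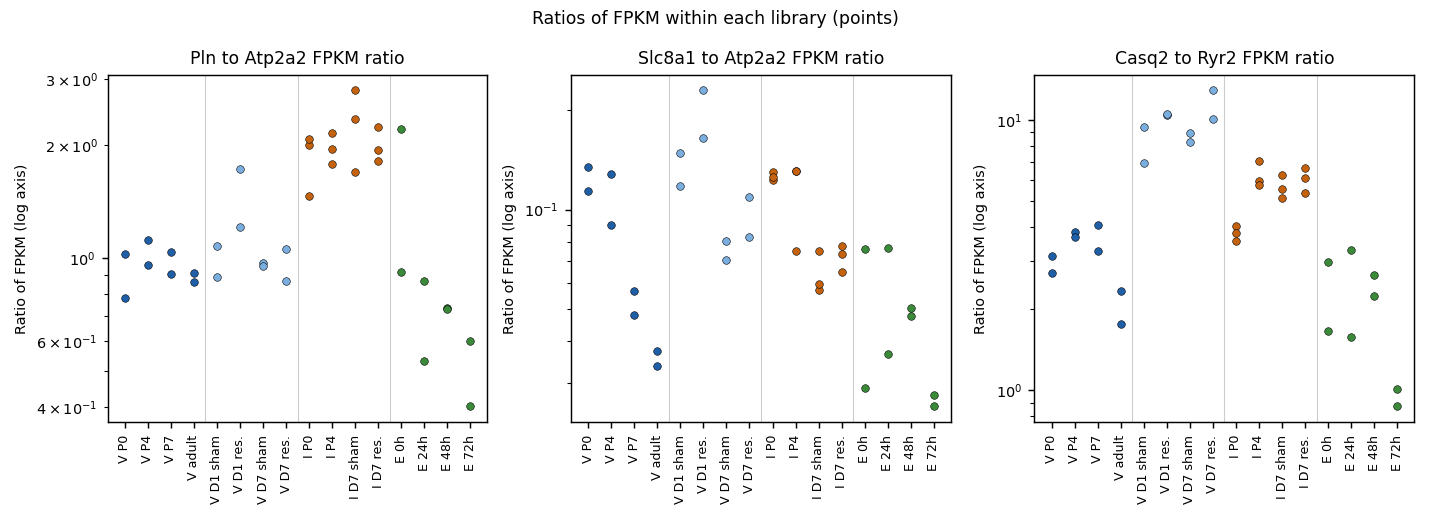
Ratio of FPKM (log axis) of Pln to Atp2a2, Slc8a1 to Atp2a2 and Casq2 to Ryr2 in every library, as points, by group, with ventricle in blue (light after surgery), isolated cells in orange and explants in green. Slc8a1 to Atp2a2 goes from 0.114 and 0.134 at P0 to 0.0337 and 0.0375 in adult ventricle, and Casq2 to Ryr2 is at 6.95 to 12.8 in operated ventricle.

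Levels set across the 16 groups give an order for each member. Atp2a2 (2857 FPKM), Hrc (436) and Jph2 (172) were highest in adult ventricle, with no overlap with the next group. Ryr2 and Pln were highest in explants at 0 h, at means of 199.5 and 2716, overlapping adult ventricle. Casq2, Trdn and Slc8a1 were highest in operated ventricle. Srl was highest in day 7 sham ventricle (451), which overlapped adult ventricle (450). Explants at 72 h were lowest for Srl, Casq2, Pln, Hrc, Slc8a1, Jph2 and Atp2a2. Isolated day 7 sham cells were lowest for Ryr2 (23.9) and Trdn (48.7). Some neighbours in these orders did not differ beyond their spread, such as explants at 72 h and isolated day 7 sham cells for Jph2 (32.8 and 41.4) and Atp2a2 (469 and 524).

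Over the 16 group means, all 36 pairs of members were positively correlated, with Pearson r of 0.27 to 0.93 and a median of 0.71. Over the 8 ventricle groups alone the range was -0.94 to 0.81 and 23 of 36 pairs were positive. These values describe the groups, which share preparations and libraries. The genes whose group means followed a member most closely are named by the same measure. The nearest to Ryr2 was Bckdhb, of branched-chain amino acid breakdown (r = 0.98), and to Atp2a2 Ak1, an adenylate kinase (0.97). The nearest to Casq2 was Tnnc1, cardiac troponin C (0.98), and to Trdn Nexn, a Z-disc protein (0.96). The nearest to Slc8a1 was Dsg2, desmoglein of the intercalated disc (0.97), and to Srl Gcom1 (0.98), just ahead of the cardiac actin gene Actc1 (0.98). Tcea3 was nearest to Pln and Pxmp2 to Hrc, each with r = 0.95.

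Other genes of the pathway were taken from 5 lists chosen with earlier results of these data known. From P0 to adult ventricle, 3 of 12 tested genes of release and the dyad were higher and 5 lower, with a median of -0.32 beside -0.36 over all features. Of all features 13.4% were higher and 43.6% lower, the shares against which the counts of the wider lists stand. Tmem38a, the SR potassium channel TRIC-A, was at 1.26 and Jph1, the junctophilin of skeletal muscle, at 0.89. Sri, which encodes sorcin, was at -0.96 and Fkbp1a, a ryanodine receptor binding protein, at -0.93. Of 5 tested genes of uptake and storage 1 was higher, S100a1, a calcium sensor that acts on the pump and the receptor (1.63). The 1 that was lower was Sln (-3.57), which was at 45.5 and 2.27 FPKM at P0 and 0.0751 and 0 in adults, so that its level at P0 rested on 1 library.

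Of 13 tested genes of the surface membrane 2 were higher and 7 lower from P0 to adult, with a median of -0.53, again beside 13.4% higher and 43.6% lower over all features. The higher ones were Cacna2d1 (1.59), an accessory subunit of the L-type channel, and Cacna1s (1.56), the pore subunit best known from skeletal muscle. The T-type channel genes Cacna1h (-3.24) and Cacna1g (-1.89) were the lowest. Cacna1h was at 12.6 and 12.3 FPKM at P0 and 0.333 and 0.509 in adults, with no overlap. Among 16 regulators 1 was higher, Akap6 (0.51), an anchoring protein of protein kinase A, and 8 were lower, beside the same shares, led by Ppp1r1a (-2.91), inhibitor 1 of protein phosphatase 1, and Camk2a (-1.12). Among genes of mitochondrial calcium transport, Slc8b1 (0.49) and Letm1 (0.38) were higher.

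In explants at 72 h against 0 h, the wider lists did not all follow the members. Of 10 genes of release and the dyad 3 were higher and 2 lower, with a median of 0.38 beside 0.76 over all features. Tmem38b (1.75) and Bin1 (1.37), which shapes the T-tubule, were higher, and Cav3, muscle caveolin (-2.05), and Tmem38a (-1.78) were lower. Of 3 genes of uptake and storage 2 were higher, Hax1 (2.44), a partner of phospholamban, and Calr (1.54), the calcium buffer calreticulin. Calr was at 63.0 and 66.3 FPKM at 0 h, 109 and 168 at 24 h, 122 and 168 at 48 h, and 181 and 198 at 72 h. Each later library lay above both at 0 h, while Casq2, the buffer of the muscle SR, went from 337 and 583 to 23.2 and 42.8.

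Of 8 surface membrane genes 2 were higher and 4 lower in explants at 72 h, with Cacnb2 (-2.73), the main cardiac beta subunit of the L-type channel, and Cacna1g (-2.02) the lowest. None of 15 regulators was higher and 4 were lower, with Camk2b (-1.72) and the phosphodiesterase gene Pde4d (-1.27) the lowest. Among the mitochondrial genes Slc8b1 was higher (1.71). These counts stand beside 46.8% of all features called higher and 9.07% lower.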

How the data were processed

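RNA of 36 libraries was measured by sequencing, and the authors deposited FPKM values in 1 table with a column per library. Per the submitters' processing notes, Cufflinks 1.2.1 and Cuffdiff were used, with TopHat 1.3.2 and Bowtie 0.12.7, on build mm9. The annotation is not given in the sources used here. Since FPKM keeps no depth, no count model, counting interval or detection floor was used.

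The scale was log2(FPKM + 1), for features at 1 FPKM or more in at least 2 libraries. Group means were fitted with limma 3.58.1 (R 4.3.3) within each preparation (12 isolated, 16 ventricle, 8 explant libraries), and over all 36 for comparisons across preparations. P-values were adjusted by Benjamini-Hochberg over all features, with a threshold of 0.05. Ratios were tested by exact permutation of libraries with a one-way F between groups. That test asks for any difference between the groups and has no direction. Python 3.11.15, NumPy 2.4.6, pandas 2.3.3 and Matplotlib 3.10.9 were used. The fit was tested on simulated data.

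Members and lists were chosen with earlier results of these data known. All members are named, with the gene of highest Pearson r to a member and, of the wider lists, the called genes of largest change; some genes that this rule names are not reported here. Genes named but not found, Cacna1c among them, were not analysed here, so 6 ratio tests were made. Replicate numbers tracked each other in explants only (r of 0.365 to 0.596), where blocked values are given. Alternatives were the pseudocount, the filter, 2 scalings, the fit, the block, each library left out, zeros as missing values and, added after the data were seen, scaling to cardiomyocyte markers and, for explant ratios, reassigning times within replicates.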

Additional observations from a re-analysis of the deposited data

How the results depend on the processing

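Direction and call were the same for the 9 members in all comparisons with a pseudocount of 0.1 and with zeros as missing values. No member value was set missing, so that setting could move a member's call only through other features. The lowest member value was 8.67 FPKM, so the smaller pseudocount could change the members' values little. Counts of members called moved as follows, and the cause was not tested. After median-of-ratios scaling the count was 1 for resection against sham at day 1, 1 for its change between the days, 1 for isolated day 7 sham against P4 and 1 for isolated against ventricle at P0. After quantile normalization it was 1 for the isolated comparison, 1 for explants at 24 h and 2 for day 7 sham against P7. Quantile normalization reversed Srl from P0 to adult (-0.40), Srl at day 7 sham against P7 (-0.070) and Trdn in explants at 72 h against isolated P0 (-0.77). After scaling to cardiomyocyte markers the count was 1 from P7 to adult, 0 for the isolated comparison, 1 at 24 h, 1 from 24 to 48 h, 2 from 48 to 72 h, 5 from 0 to 72 h and 0 for isolated against ventricle at P0. That scaling reversed Ryr2 (0.0079) and Atp2a2 (0.11) in isolated day 7 sham against P4, and Atp2a2 (0.96) and Trdn (1.34) from 48 to 72 h. From 0 to 72 h it reversed Ryr2 (0.46), Atp2a2 (0.92), Trdn (1.79), Slc8a1 (0.19) and Jph2 (1.15), and against isolated P0 Ryr2 (1.28), Atp2a2 (1.29), Hrc (1.26) and Jph2 (1.24). With the replicate block the count was 2 for sham day 7 against day 1, 1 for the change between the days, 7 from 24 to 48 h, 5 from 48 to 72 h and 5 for isolated against ventricle at P0. Across preparations that fit compares levels fitted for replicate 1 of each, so the last count does not rest on averages over replicates. In ventricle and isolated cells the samples shared only a number (r of -0.132 to 0.175 and -0.558 to 0.402). A single fit over all libraries gave 1 from P7 to adult, 0 for the sham days, 8 for isolated day 7 sham against P4, 2 from 24 to 48 h, 5 from 48 to 72 h and 1 for day 7 sham against P7. Without the filter the isolated count was 1, and a fit of the compared groups alone gave 7 for isolated against ventricle at P0. With each library left out in turn, counts ran from 5 to 5 from P0 to adult, 3 to 4 from P7 to adult, 0 to 1 from P0 to P4, 1 to 2 for the sham days, 0 to 1 for the change between the days, 0 to 7 for isolated day 7 sham against P4, 0 to 1 at 24 h, 8 to 9 from 0 to 72 h, 0 to 2 for explants at 0 h against adult ventricle, 0 to 5 for isolated against ventricle at P0, 6 to 8 for explants at 72 h against isolated P0 and 2 to 3 for day 7 sham against P7. In the other comparisons they stayed at 0 to 0. Depth is unknown, so what it limits could not be measured.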
